A study of Rattus norvegicus with 9 samples.

Results

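Genes of 5 matrix metalloproteinases and of 1 inhibitor were followed in rat bone marrow mesenchymal stem cells (MSCs) and in the neural progenitor-like cells (NPCs) induced from them. The members were Mmp3, Mmp10, Mmp13, Mmp9, Mmp23 and Timp4, taken by the gene IDs that the study's tables pair with these symbols, and all 6 were found among the 26249 genes of the 9 libraries. MSCs came from the marrow of 3 Sprague-Dawley rats aged 4 weeks and were used at passage 3. One group of 3 libraries was untreated MSCs. The NPC group of 3 libraries was induced for 3 days by EGF and bFGF, each at 20 ng/ml. The study describes its NPCs as differentiated from the MSCs of these same rats, and the test of NPCs against MSCs did not pair them. The third group, also of 3 libraries, received EGF, bFGF and IGF-1 for 3 days and is called NPCs with IGF-1 below. For that group neither the dose of IGF-1 nor the culture conditions beyond its factors and time are given in the sources used here. Nor is it said whether its libraries came from separate rats, so p-values with it measure only the spread between these libraries, which may be technical. Induction of NPCs also meant a change to ultra-low attachment plates and to NeuroCult NS-A medium. Cells in suspension without growth factors were not analysed here, so growth factors, medium and loss of attachment cannot be told apart. Levels are given as FPKM, a read density that is scaled by transcript length and by the mapped fragments of the library. They were read from Cufflinks output, whose bounds imply 38.9 to 51.1 M reads per library.

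Matrix metalloproteinases are zinc-dependent endopeptidases that are made as inactive precursors and cut extracellular matrix, growth factor binding proteins and other precursors. Stromelysins (Mmp3, Mmp10) and collagenases (Mmp13) are low in resting fibroblast-like cells and are known to be switched on together by growth factors and inflammatory cytokines, partly through AP-1, the Fos and Jun dimers that bind their promoters. Tissue inhibitors of metalloproteinases (TIMPs) bind the active site and block it, and Timp4 is the member of that family with the most restricted tissue range.

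The 3 members that lie together on chromosome 8 were the ones whose levels moved most, so their promoters are shown. They are the 120 bases directly upstream of the RefSeq gene start, from RefSeq on build GRCr8, 5′ to 3′ on the gene's strand, with the AP-1 letters TGANTCA and the TATA box letters TATAAA in capitals. The Mmp3 window is chr8:12925161-12925280, the Mmp10 window chr8:12974587-12974706 and the Mmp13 window chr8:12782709-12782828, all on the plus strand.
Mmp3: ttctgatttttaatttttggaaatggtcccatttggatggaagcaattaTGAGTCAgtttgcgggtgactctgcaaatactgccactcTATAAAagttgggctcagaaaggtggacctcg
Mmp10: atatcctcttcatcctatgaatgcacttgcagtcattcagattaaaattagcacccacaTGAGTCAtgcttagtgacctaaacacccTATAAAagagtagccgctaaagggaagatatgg
Mmp13: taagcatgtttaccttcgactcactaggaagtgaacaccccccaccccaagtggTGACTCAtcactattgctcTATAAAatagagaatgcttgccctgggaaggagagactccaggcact

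In all 3 windows the AP-1 letters stood a short way before the TATA box and did not overlap it. Their first letter was 71 bases before the start in Mmp3, 61 in Mmp10 and 66 in Mmp13. The TATA box letters began 32 bases before the start in Mmp3, 33 in Mmp10 and 47 in Mmp13. In the full 250 bases searched, Mmp10 held TATAAA once more, 196 bases before the start. Across 33469 RefSeq promoters of the same length, 6.34% held TGANTCA, which reads as TGANTCA on the other strand too, 8.06% held TATAAA on the gene's strand, and 0.693% held both. The Ets letters AGGAAG, searched on both strands and held by 29.5% of the promoters, were found once each in Mmp3, Mmp13 and Timp4, 206, 95 and 158 bases before the start. The windows of Mmp23 and Timp4 held neither the AP-1 nor the TATA box letters. Entries were matched for 5 of the 6 members, and that of Mmp9 was not among them. These matches describe letters in a window, and binding was not measured.

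Mmp3, the stromelysin that cuts proteoglycans, fibronectin and the precursors of other metalloproteinases, was the most abundant of the 6 genes after induction. It had 1.96, 2.29 and 2.66 FPKM in the 3 MSC libraries and 805, 1383 and 881 FPKM in the 3 NPC libraries. NPCs with IGF-1 had 1142, 1572 and 2112 FPKM. Every induced library was above every MSC library. In the libraries of both induced groups Mmp3 ranked between 7 and 25 among the 14228 genes tested over the 9 libraries, whereas in MSCs it ranked between 8705 and 9770. The log2 fold change of NPCs against MSCs was 8.64 (SE 0.24, n = 3 and 3, limma adjusted p = 3.8e-06), second only to Mmp10 among the 13696 genes tested. Which of these stromelysins came first depended on the processing, as given for Mmp10 below. The gene is ENSRNOG00000032626, on the plus strand of chromosome 8 from 5680439 to 5701146 in the coordinates of the deposited files. Their build is not named in the labels or the file headers.

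Mmp10, the second stromelysin, went from the edge of detection to a high level. It had 0.195, 0.287 and 0.121 FPKM in MSCs, values whose deposited 95% bounds imply 14.0, 25.8 and 9.59 reads. The NPC libraries had 107, 175 and 115 FPKM, and those with IGF-1 had 145, 490 and 284 FPKM. No induced library came near the MSC range, and the spread within NPCs with IGF-1 was 3.38-fold from lowest to highest. The log2 fold change of NPCs against MSCs was 8.73 (SE 0.25, limma adjusted p = 3.8e-06), which was the highest of all genes tested. With a pseudocount of 1 in place of 0.1 it was 6.72, below the 8.18 of Mmp3. With quantile normalisation it was 8.84, against 8.89 for Mmp3, so the first place depends on the processing. The place among all genes rests on the pseudocount too. Prg4, listed at 0 in MSCs, had 8.31 at 0.1, a value that a smaller pseudocount raises. Places among all genes at other pseudocounts were not examined. Mmp10 is ENSRNOG00000032832, at 5737185 to 5745085 on the plus strand of chromosome 8 in the same file coordinates. The stromelysins are close paralogs, and how reads shared between them were assigned is not stated, so the split between both genes is less certain than their rise.

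Mmp13, the main interstitial collagenase of rodents, cuts fibrillar collagens. Its MSC libraries were spread more widely than those of any other member, at 4.73, 5.87 and 0.978 FPKM. NPCs had 271, 433 and 572 FPKM, and NPCs with IGF-1 had 311, 488 and 737 FPKM. The MSC library of replicate 3 was 6.0-fold below the highest MSC library, yet the lowest induced library was still far above all 3. NPCs differed from MSCs by a log2 fold change of 6.95 (SE 0.61, limma adjusted p = 0.00042), and its place was 10 from the top among all genes tested. Its standard error was larger than those of the other 5 members. Mmp13 is ENSRNOG00000008478, at 5527980 to 5538259 on the plus strand of chromosome 8 in the file coordinates.

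Mmp9, the gelatinase that cuts denatured collagen and basement membrane collagen, rose as well but stayed low. MSC libraries had 0.129, 0.0866 and 0.0947 FPKM, which imply 16, 13 and 11 reads. NPCs had 3.18, 1.71 and 2.97 FPKM, and NPCs with IGF-1 had 3.86, 2.43 and 2.29 FPKM. The groups did not overlap with the MSCs, and the log2 fold change of NPCs was 3.65 (SE 0.32, limma adjusted p = 0.00023). Even so, Mmp9 lay below the 40th percentile of tested genes in every induced library, with a highest percentile of 39.9. With a pseudocount of 1 in place of 0.1 its log2 fold change was 1.66, since its MSC level is close to 0. Mmp9 is ENSRNOG00000017539, on chromosome 3 from 167597817 to 167605882, plus strand.

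Mmp23, a membrane-anchored member with an unusual C-terminal part in place of the hemopexin domain, was the only one of the 6 that fell. It was the most abundant proteinase of the 5 in MSCs, at 12.3, 10.9 and 11.7 FPKM. NPCs had 1.26, 1.89 and 1.29 FPKM, and NPCs with IGF-1 had 1.35, 1.28 and 1.39 FPKM. Neither induced group overlapped with the MSCs. Its log2 fold change in NPCs was −2.98 (SE 0.21, limma adjusted p = 8.4e-05), a 7.87-fold lower level. Mmp23 is ENSRNOG00000017477, on the minus strand of chromosome 5 from 176554526 to 176557315.

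Timp4, the only inhibitor among the members, rose least and remained low. Its MSC libraries had 0.332, 0.266 and 0.380 FPKM. NPCs had 0.965, 1.14 and 0.539 FPKM, and NPCs with IGF-1 had 0.916, 1.10 and 1.26 FPKM. The lowest NPC library, replicate 3, was above the highest MSC library by a narrow margin, and implied reads were 18.9 to 21.0 in MSCs and 36.2 to 78.0 in induced cells. The log2 fold change was 1.10 (SE 0.32, limma adjusted p = 0.032) in NPCs, and this call was lost without NPC replicate 1 (adjusted p = 0.096), without NPC replicate 2 (0.096), without MSC replicate 1 (0.091) and without MSC replicate 2 (0.098). It was also lost with quantile normalisation (adjusted p = 0.095), with annotated transcripts only (0.13) and, through the fold threshold, with a pseudocount of 1 (log2 fold change 0.46). In NPCs with IGF-1 the log2 fold change was 1.41 (SE 0.29, limma adjusted p = 0.0047). Timp4 is ENSRNOG00000007955, on the minus strand of chromosome 4 from 210445694 to 210452213.

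**Figure D1:**
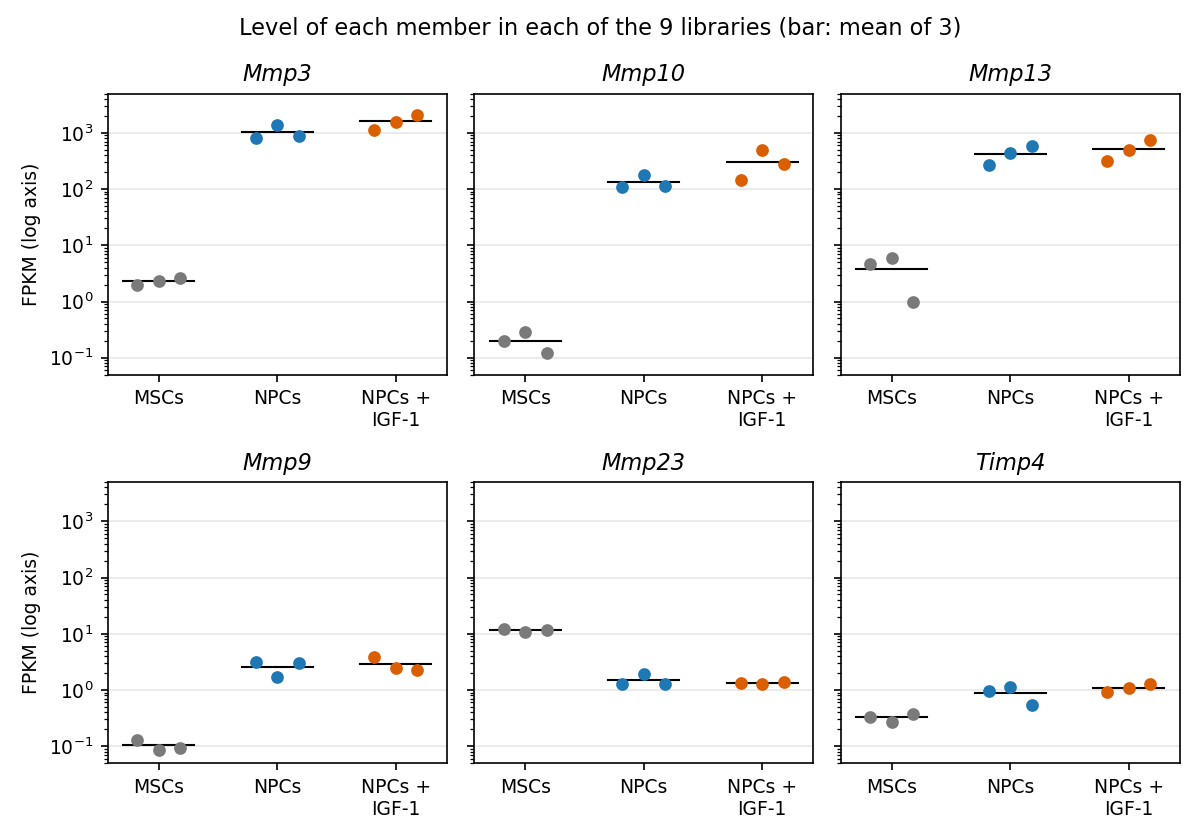
FPKM of each member in each library on a log axis, 1 panel a gene, 3 points a group and a bar for the group mean. Mmp3, Mmp10, Mmp13 and Mmp9 sit far higher in both induced groups, Mmp23 sits lower, and Timp4 is higher by a narrow margin.

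Between NPCs and MSCs, 5 of the 6 members were called higher and 1 lower, and the libraries of all 6 did not overlap. Of all genes tested in that fit, 11.7% were called higher and 9.89% lower, and 27.5% had non-overlapping groups in the higher direction and 22.3% in the lower. Genes were called when the Benjamini-Hochberg adjusted p over all tested genes was 0.05 or lower and the fold change was 1 or more on the log2 scale in either direction. The study took its gene tables, from which the members come, from this same contrast, so these calls are not independent evidence of direction. The median log2 fold change was 5.30 over the members and 0.03 over all genes tested. In bulk libraries, more cells of a type and more RNA per cell cannot be told apart.

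The libraries with IGF-1 did not enter the study's tables. Against the MSCs, 5 of the 6 members were again called higher and 1 lower, with non-overlapping libraries for all 6. In that fit 11.7% of 14228 genes were called higher and 9.74% lower, and 31.1% and 23.3% had non-overlapping groups in the higher and lower direction. The log2 fold change was 9.27 (SE 0.27) for Mmp3, 9.80 (SE 0.39) for Mmp10 and 7.18 (SE 0.59) for Mmp13. It was 3.78 (SE 0.31) for Mmp9 and −3.11 (SE 0.19) for Mmp23. Limma adjusted p-values of these 5 ranged from 2.6e-07 for Mmp3 to 4e-05 for Mmp13. Both comparisons share the 3 MSC libraries, so the likeness of their values is not a second measurement of the MSC level.

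Added IGF-1 made no difference that passed the test in any member. In the direct comparison of NPCs with IGF-1 and NPCs, 0 of the 6 members were called by limma, against 0.0211% of all genes (3 genes). The libraries overlapped for all 6, and 9.6% of all genes had groups that did not overlap. Before adjustment limma gave 2 members under 0.05, Mmp3 at 0.043 and Mmp10 at 0.023, and 661 of all genes, and after adjustment both members were at 1. The mean Mmp3 level was 1023 ± 314 FPKM (SD, n = 3) in NPCs and 1608 ± 486 FPKM (SD, n = 3) with IGF-1. The log2 difference was 0.63, with a 95% interval of 0.03 to 1.24. With annotated transcripts only, which leaves out the unannotated isoforms described below, it was 0.11 (SE 0.34). With isoforms weighted by length it was 0.72 (SE 0.30). Without 1 library it lay between 0.41 (without replicate 3 of the NPCs with IGF-1) and 0.86 (without replicate 1 of that group). For Mmp10 the means were 132 ± 37.1 and 306 ± 174 FPKM (SD, n = 3), and the log2 difference was 1.07 with an interval of 0.18 to 1.95.

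The interval of Mmp13 was wide, from −1.11 to 1.57 around a log2 difference of 0.23, so that neither a fall of 1 nor a rise of 1 on the log2 scale lay outside it. Mmp9 differed by 0.12 (−0.57 to 0.81) and Timp4 by 0.31 (−0.34 to 0.97). Mmp23 had the narrowest interval, at −0.13 (−0.55 to 0.29). The Mmp10 value rests on how its transcripts were counted, as the isoforms below show, and it became 0.73 (SE 0.28) when isoforms were weighted by length.

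**Figure D2:**
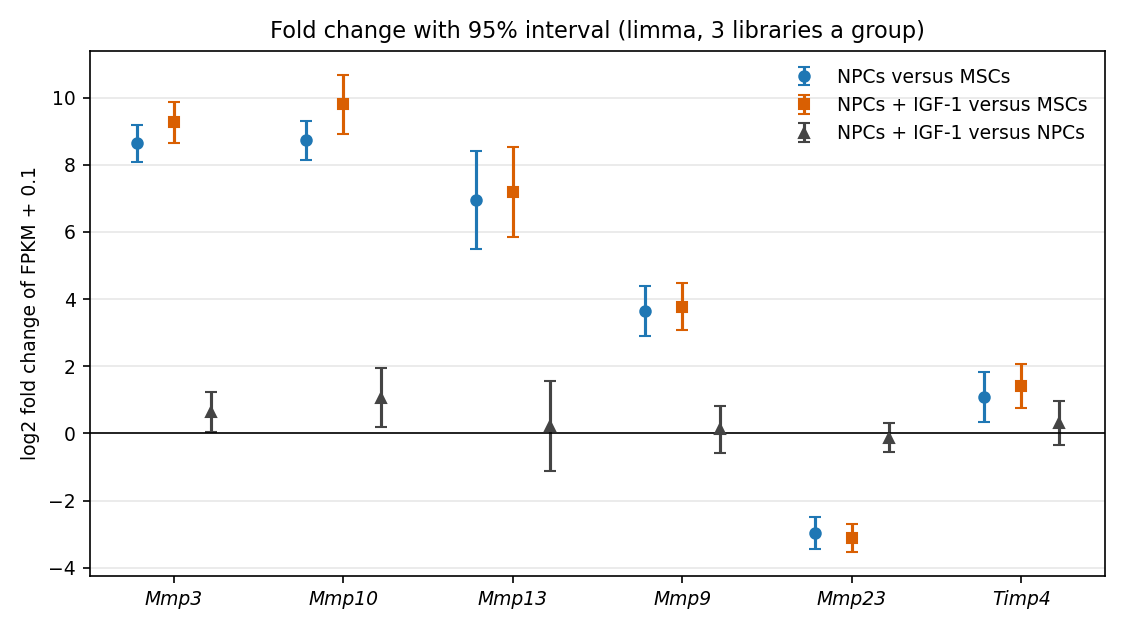
Log2 fold change of FPKM + 0.1 for each member in the 3 comparisons, with 95% intervals from limma. The circles and squares, each against MSCs, lie between 1.10 and 9.80 for 5 genes and below 0 for Mmp23, and the triangles, which compare the induced groups, lie between −0.13 and 1.07.

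Within a library the ratio of one gene to another does not depend on the scaling between libraries. The 5 proteinases together had 15.6 to 19.5 FPKM in MSCs, 1187 to 1994 FPKM in NPCs and 1603 to 3137 FPKM in NPCs with IGF-1. Mmp23 made up 56.1 to 75.3% of that sum in MSCs but 0.0823 to 0.106% in NPCs and 0.0444 to 0.0840% with IGF-1. Mmp3 went from 10.2 to 17.1% of the sum in MSCs to 56.0 to 69.4% in NPCs and 61.5 to 71.2% with IGF-1. The make-up therefore turned from mostly Mmp23 to mostly stromelysin and collagenase in all 6 induced libraries.

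In MSCs the order of mean levels was Mmp23, Mmp13, Mmp3, Timp4, Mmp10 and Mmp9. Mmp13 and Mmp3 overlapped there, as did Timp4 with Mmp10 and Mmp10 with Mmp9, while Mmp23 stood above all others. In NPCs the order was Mmp3, Mmp13, Mmp10, Mmp9, Mmp23 and Timp4, and in that group the first 3 did not overlap with each other. Mmp9 and Mmp23 overlapped in NPCs, and Mmp23 and Timp4 did not. Both statements reversed with isoforms weighted by length, where Mmp23 had 1.32, 1.04 and 1.32 FPKM in NPCs. The lowest Mmp9 library there was at 1.71 FPKM and the highest Timp4 library at 1.14 FPKM. With IGF-1 the order was the same, with Mmp13 and Mmp10 overlapping through the 490 FPKM of Mmp10 in replicate 2. Weighted by isoform length, Mmp10 had 145, 246 and 284 FPKM and did not reach the lowest Mmp13 library at 311 FPKM. The lowest 3 genes lay between 0.916 and 3.86 FPKM.

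Mmp3 exceeded Mmp10 by a close ratio across the NPC libraries, 7.56, 7.92 and 7.68 (7.56, 8.75 and 7.68 when weighted by isoform length). With IGF-1 the ratios were 7.88, 3.21 and 7.43, and only replicate 2 stood apart. In MSCs, where Mmp10 rests on few reads, they were 10.04, 7.99 and 22.0. The ratio of Mmp3 to Mmp13 was 2.98, 3.19 and 1.54 in NPCs and 3.67, 3.22 and 2.86 with IGF-1. In MSCs it was 0.414, 0.391 and 2.72, where the third library is the one with the low Mmp13 level.

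**Figure D3:**
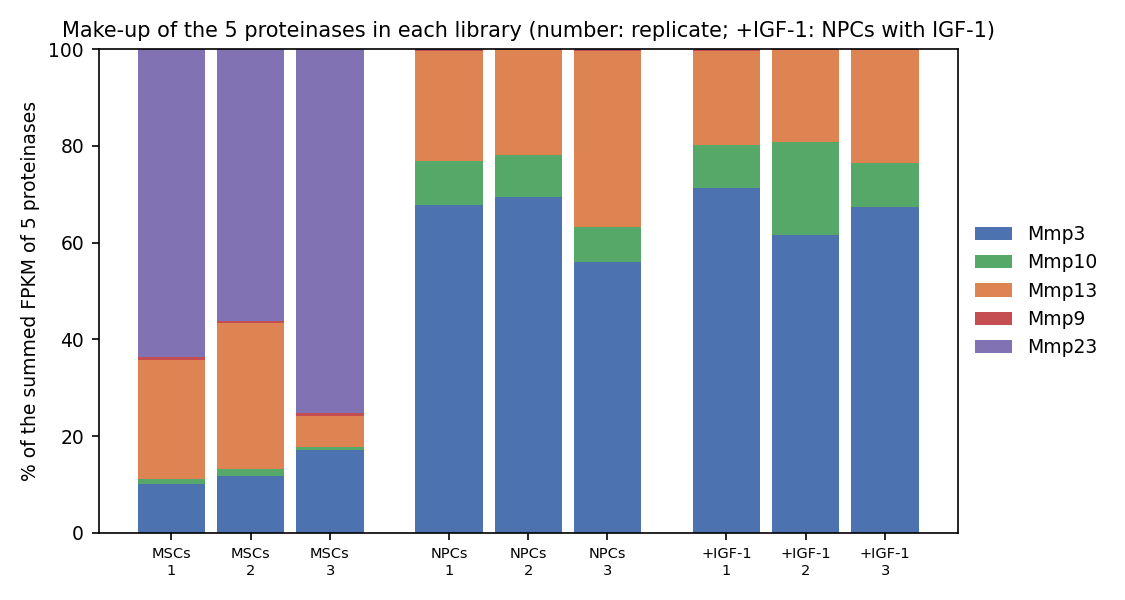
Each bar is 1 library, split by the share of each gene in the summed FPKM of the 5 proteinases, in percent. Mmp23 fills 56.1 to 75.3% of the MSC bars and is too thin to see in the induced ones, where Mmp3 fills 56.0 to 71.2%.

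Mmp13, Mmp3 and Mmp10 lie in that order on the plus strand, within 217 kb from the start of Mmp13 to the end of Mmp10. Between Mmp13 and Mmp3 are 142179 bases and 2 annotated genes, and between Mmp3 and Mmp10 are 36038 bases and 1 annotated gene. These 3 genes in between stayed near 0, with a highest value of 0.312 FPKM in any library. That value belonged to ENSRNOG00000030187, which averaged 0.0355 FPKM in MSCs, 0.106 in NPCs and 0.244 with IGF-1. The 5 annotated genes downstream of Mmp10 had at most 0.0294 FPKM, and 3 of them were listed at 0 in every library. On the other side of Mmp13, ENSRNOG00000008390 averaged 27.3 FPKM in MSCs, 21.8 in NPCs and 23.2 with IGF-1.

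From Mmp13 onwards, high levels were thus found at the 3 members and not at the genes between them or downstream. RefSeq on build GRCr8 places 10 protein-coding genes from Mmp13 to Mmp7 in this stretch, all named as metalloproteinases, in the order Mmp13, Mmp12, Mmp1b, Mmp3, Mmp1, Mmp10, Mmp8, Mmp27, Mmp20 and Mmp7. The files do not pair their gene IDs with those names, so no name is given to the neighbours of low level.

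**Figure D4:**
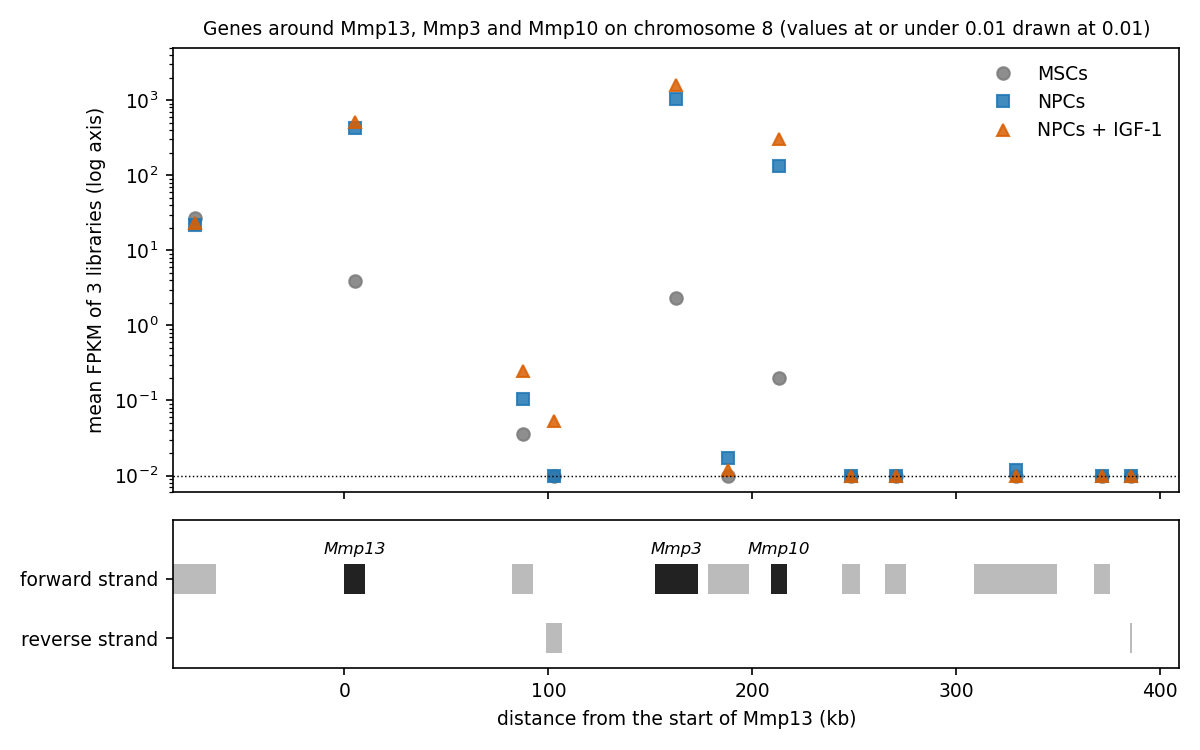
Mean FPKM of 3 libraries on a log axis for each annotated gene around the chromosome 8 members, against distance from the start of Mmp13 in kb, with the genes drawn by strand below (members black, others grey). Mmp13, Mmp3 and Mmp10 stand above 100 FPKM in induced cells and below 10 FPKM in MSCs, the genes between and after them stay below 1 FPKM, and the gene before Mmp13 lies between 21.8 and 27.3 FPKM in all 3 groups.

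The isoforms that Cufflinks assembled differed between libraries. Mmp13, Mmp9 and Timp4 were given by their annotated transcript alone in all 9 libraries. Mmp3 had in addition unannotated isoforms in NPC replicate 2 and in replicates 1 and 3 with IGF-1, where they were 1, 1 and 2 in number. They carried 46.0% of the gene's FPKM in the first, 49.2% in the second and 22.2% and 39.4% in the third. These had 14 exons like the annotated transcript, but began 127 to 174 bases before it and ended 277 to 292 bases past it. They fully covered only 12 or 13 of the 14 annotated exons, so longer ends were not their only difference. Their lengths were 1811 to 1909 bases, against 1476 bases for the annotated transcript. No such isoform was assembled in MSCs, where Mmp3 was low.

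For Mmp10 a single library decided the picture. In replicate 2 with IGF-1 the annotated transcript of 1708 bases was listed at 0, with an upper 95% bound of 0.0289 FPKM, and all 490 FPKM were on an unannotated isoform of 5 exons and 857 bases. In the other 8 libraries all of the FPKM lay on the annotated transcript. Weighted by length the level in that library was 246 FPKM, between the 145 and 284 FPKM of replicates 1 and 3. The ratios of Mmp3 to Mmp10 with IGF-1 then became 9.02, 6.39 and 8.71, and replicate 2 still had the lowest. With annotated transcripts alone the log2 difference between NPCs with IGF-1 and NPCs turned to −3.03 (SE 2.68), and the call against MSCs was lost (log2 fold change 5.80, limma adjusted p = 0.2).

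Mmp23 had unannotated isoforms in 5 of the 6 induced libraries and in none of the MSC libraries. In NPC replicates 1 and 3 and in replicate 3 with IGF-1 the isoform had 7 exons, since intron 3 of the annotated transcript, counted from the 5′ end, lay inside an exon. It carried 40.0%, 33.1% and 25.1% of the gene's FPKM in these libraries. Each rested on a low level, 0.504, 0.428 and 0.350 FPKM, with deposited 95% bounds of 0.270 to 0.738 for the first. A short 3-exon isoform of 505 bases held 70.3% of the FPKM in NPC replicate 2. MSCs, which had far more Mmp23 RNA, showed the annotated transcript alone. Over all genes, unannotated isoforms numbered 7506 to 7817 in each MSC library and 9181 to 10493 in each induced library.

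**Figure D5:**
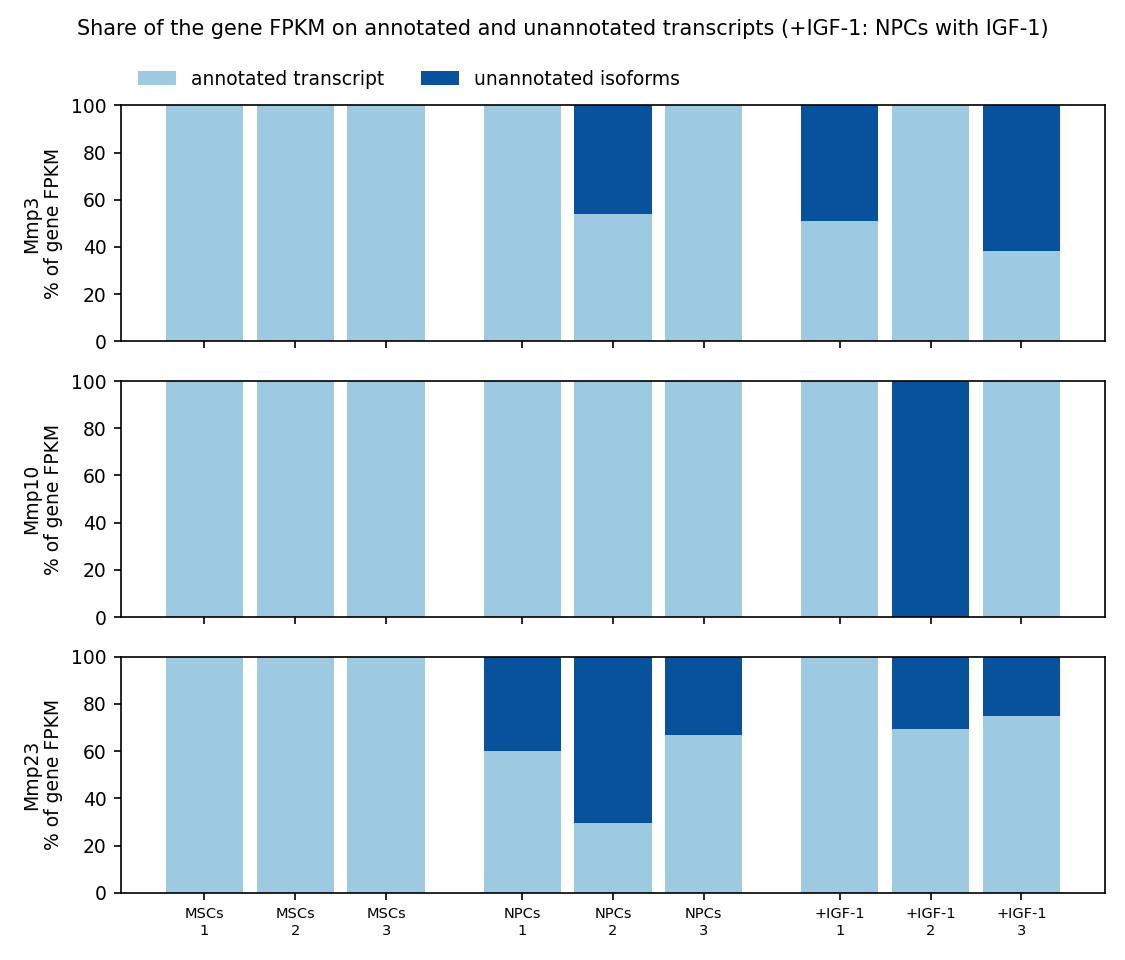
Share of the gene FPKM, in percent, on the annotated transcript (light) and on unannotated isoforms (dark) in each library. Mmp10 is wholly unannotated in replicate 2 with IGF-1, and unannotated shares of Mmp23 occur in induced libraries only.

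The genes whose profiles over the 9 libraries were most like those of the members were sought among 1305 other named genes with a mean of at least 1 FPKM (1306 for Timp4), by the root mean square difference of log2 values centred on each gene's mean. This is a description of group patterns, with no test. For Mmp3 the nearest were Prg4, the lubricating proteoglycan of joints (0.49), Mmp10 (0.50) and Pla2g2a, a secreted phospholipase (0.57). Mmp10 had Mmp3 (0.50), Prg4 (0.64) and Pla2g2a (0.85) as nearest. Each stromelysin thus had the other and the same 2 secreted products as its nearest named genes. Prg4 was listed at 0 in all 3 MSC libraries and averaged 36.1 FPKM in NPCs and 59.6 with IGF-1. Pla2g2a averaged 0.0238 FPKM in MSCs. The distances of both therefore rest on the pseudocount, and no other was tried for profiles.

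Mmp13 had as nearest Tlr2, a receptor for microbial lipoproteins (0.66), Rasd1 (0.72) and Frzb, a secreted Wnt antagonist (0.76). It had 11 named genes within 1, against 6 for Mmp3 and 5 for Mmp10. Mmp13 and Mmp3 differed by 1.19. The nearest to Mmp9 were Gprc5b (0.33), Phkg1 (0.39) and Lama2, a basement membrane laminin chain (0.40), and 148 named genes were within 1 of it. Near to Mmp23 were Serpinb9 (0.23) and Alcam, a cell adhesion molecule (0.26), both with lower means after induction. Timp4, with its small change, had 819 named genes within 1, led by Nop53, Btg1 and Klf10 (0.19 to 0.21).

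The other genes of the pathway could be read only in part, since names came from the study's tables. Of 22 metalloproteinases listed 5 had a name, all of them members, and of 10 inhibitors only Timp4, so Timp1, Timp2 and Timp3 were not analysed here and no balance of proteinases and inhibitors was computed. A name from the study's tables of called genes carries that choice with it. Of the tested genes named there 87.2% were called in NPCs against MSCs, and 21.9% of the 947 named elsewhere. Counts in the next sentences are read with that in mind.

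Of the plasminogen system, whose product plasmin activates metalloproteinase precursors, Plgrkt, a plasminogen receptor, averaged 21.8 FPKM in MSCs, 13.0 FPKM in NPCs and 11.4 FPKM with IGF-1. It did not pass both thresholds in NPCs, with a log2 fold change of −0.76 (SE 0.22). Serpinf2, the plasmin inhibitor, was low and not called, at 0.27 (SE 0.28).

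Among processing enzymes and partners, 3 of 12 were tested and 2 were called higher. Lcn2, the lipocalin known to bind Mmp9, had 0.0281, 0.145 and 0.131 FPKM in MSCs, 18.3, 21.8 and 46.4 FPKM in NPCs and 45.3, 72.9 and 116 FPKM with IGF-1. Its log2 fold change in NPCs was 7.04 (SE 0.43, limma adjusted p = 5.3e-05). Ctsc, a lysosomal dipeptidyl peptidase, rose by 1.96 (SE 0.26), and Hpse, which cuts heparan sulphate, had 0.16 (SE 0.34, not called). The median over the 3 was 1.96. Of the ADAMTS family 3 of 23 were tested, with a median of 0.03. Adamts8 rose from a mean of 0.103 to 1.91 FPKM, and Adamts1 and Adamts4, which cut aggrecan and versican, were not called, at −0.80 and 0.03. Of the ADAM family only Adam11, and of the inducing cytokines only Tnf, had a name. Both were too low to be tested, with at most 0.0607 and 0.264 FPKM in any library.

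Of 23 transcription factors and regulators known at metalloproteinase promoters 7 were tested, of which 4 were called higher, 0 lower and 3 not called, with a median log2 fold change of 1.86. Etv4, an Ets factor, averaged 1.01 FPKM in MSCs and 6.27 in NPCs (log2 fold change 2.48, SE 0.37). Nfkbia, the NF-kappa-B inhibitor that is itself induced by NF-kappa-B, averaged 4.24 and 19.5 FPKM (2.10, SE 0.20). Nr4a2 and Epas1 rose by 1.95 and 1.86 on the log2 scale. All 4 carried a name from the tables of called genes, and the 3 named elsewhere were not called, among them Etv5 (0.13) and Ets2 (0.54). No Fos or Jun gene had a name, so the Fos and Jun dimers that bind the AP-1 letters above were not analysed here.

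Cell types that are rich in metalloproteinases were looked for by their markers. Of 10 macrophage and monocyte markers 3 were named, and their summed level was 0.231 to 0.502 FPKM in MSCs, 9.54 to 11.4 FPKM in NPCs and 8.97 to 14.4 FPKM with IGF-1. Nearly all of it was Cd68, a lysosomal glycoprotein, while Ptprc, the defining pan-leukocyte marker, had at most 0.0142 FPKM in any library and Aif1 at most 0.0403 FPKM. The osteoclast marker Acp5, 1 of 6 named, was at 4.72 to 6.23 FPKM in MSCs, 15.0 to 22.2 FPKM in NPCs and 19.2 to 26.5 FPKM with IGF-1. Their part in the rise of Mmp9 was not tested. The chondrocyte marker Sox9 was at 3.49 to 5.35 FPKM in MSCs, 2.29 to 5.20 FPKM in NPCs and 4.2 to 9.39 FPKM with IGF-1, and the osteoblast marker Ibsp at no more than 0.402 FPKM. No neutrophil or endothelial marker had a name.

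Markers of the labelled identities were read in the same way. Of 8 MSC markers Itgb1 and Cxcl12 were named, and their sum was 1011 to 1223 FPKM in MSCs and 204 to 272 FPKM in NPCs. Nearly all of it was Itgb1, at 996 to 1217 FPKM in MSCs, against 5.39 to 14.9 FPKM for Cxcl12. Both, like Nes below, carry a name from the study's tables of called genes in this contrast. Their change is therefore no check of identity. Of 6 neural progenitor markers Nes, Msi1 and Fabp7 were named, with a sum of 0.459 to 0.697 FPKM in MSCs, 0.540 to 0.750 FPKM in NPCs and 0.694 to 0.987 FPKM with IGF-1, and Fabp7 was listed at 0 in all libraries. Nes alone, an intermediate filament of progenitors, was at 0.0534 to 0.152 FPKM in MSCs, 0.293 to 0.328 FPKM in NPCs and 0.268 to 0.331 FPKM with IGF-1. No induced library overlapped with the MSCs, and Nes missed the fold threshold in NPCs at 0.90 (SE 0.28, limma adjusted p = 0.041) and with IGF-1 at 0.85 (SE 0.25, limma adjusted p = 0.024). Msi1 had −0.30 (SE 0.35) and 0.11 (SE 0.35). All 3 named markers stayed below 1 FPKM. The progenitor label is used here as the name of the treatment.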

How the data were processed

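Rat MSCs, NPCs and NPCs with IGF-1 were compared by stranded mRNA-seq (300 ng total RNA, 3 libraries each). Per the labels and file contents, the authors assembled each library with Cufflinks, and CASAVA 1.8, bcl2fastq, TopHat, Bowtie2 and Cuffdiff are also named. Neither the labels nor the files state the genome build or annotation release behind these files. The study's methods describe a different pipeline, with its own build and release, whose values were not used. The deposited FPKM, in the attribute text, are scaled within each library, and the deposited score column was not used. FPKM of annotated and overlapping unannotated isoforms were summed per gene and divided by median-of-ratios size factors. On the scale log2(FPKM + 0.1), limma 3.58.1 in R 4.3.3 was run with trend and robust settings, so fold changes of low genes are understated. Genes needed 0.1 FPKM in at least 3 libraries and a transcript of at least 300 bases. The thresholds for a call were 0.05 for the adjusted p and 1 for the absolute log2 fold change. NPCs against MSCs used 6 libraries, and the comparisons with IGF-1 used 9.

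Depth was implied by the width of the deposited 95% bounds, which cover counting and assignment error only. The alternatives tried were a filter at 1 FPKM or none, pseudocounts of 1 and 0.01, no rescaling, quantile normalisation, a replicate block, eBayes without trend and robust, annotated transcripts only, other libraries in the fit, leaving out each library and, chosen after seeing the data, isoforms weighted by length. Only the limma step was tested on simulated data, as log2 values. Summing of isoforms, size factors and the pseudocount were not part of that. Members, lists and the rule for named genes were chosen with earlier results of these data known. That rule took the 6 members, from each list up to 4 called genes of largest change and up to 2 uncalled of highest level, the 3 nearest profiles of each member, and the genes between the chromosome 8 members. A few results under this rule are not reported here. Names of 2452 genes in the files came from the study's tables. Python 3.11.15, numpy 2.4.6, pandas 2.3.3 and matplotlib 3.10.9 were used.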

Additional observations from a re-analysis of the deposited data

Results flagged for a closer look

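Beside 2 of the members, unannotated single-exon transcripts on the same strand entered no gene's sum and were present in induced libraries but in no MSC library. Past the 3′ end of Timp4 one had 1.37 FPKM (deposited 95% bounds 0.460 to 2.27) in NPC replicate 1, 1436 bases downstream. In replicate 2 with IGF-1 there were 2 of them, of 1.55 FPKM (0.720 to 2.37) and 0.959 FPKM (0.340 to 1.58), 782 and 203 bases downstream. Timp4 itself had 0.965 and 1.10 FPKM in these libraries. Past the 3′ end of Mmp3 one had 0.894 FPKM (0.428 to 1.36) in replicate 3 with IGF-1, 350 bases downstream. They were found within 2000 bases of a member, and whether they belong to its transcript was not tested. Over the whole genome, unannotated transcripts that entered no sum numbered 20946 to 28822 in each MSC library and 55132 to 80505 in each induced library. A larger number in induced libraries is therefore not particular to these members.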

How the results depend on the processing

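Mmp3, Mmp13, Mmp9 and Mmp23 kept their direction and call against MSCs in both induced groups under every alternative run, and Mmp10 did in NPCs. In NPCs the Timp4 call was lost at log2 fold changes of 0.46 (pseudocount of 1), 0.80 (quantile normalisation), 1.10 (replicate block, adjusted p = 0.072) and 1.21 (annotated transcripts only), and ranged from 0.94 to 1.37 when a library was left out. Timp4 could not be tested in NPCs at the filter of 1 FPKM, and in NPCs with IGF-1 it was lost at 0.62 with a pseudocount of 1. With annotated transcripts only, Mmp10 was no longer called with IGF-1 (5.80) and its difference from NPCs was −3.03, since 1 library lists that transcript at 0. Mmp23 differed between the induced groups by 0.49 with annotated transcripts only and by 0.13 with isoforms weighted by length, in place of −0.13. Leaving out a library moved the differences between induced groups from −0.0816 to 0.549 for Mmp13, −0.173 to 0.281 for Mmp9 and −0.221 to 0.0305 for Mmp23, none called.

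Over all genes, calls fell from 2957 to 1715 (pseudocount of 1) and 1191 (annotated transcripts only) in NPCs, and from 3044 to 1758 and 1499 with IGF-1 against MSCs. Between the induced groups 3 genes were called, 5 without a filter or without trend and robust, 19 with annotated transcripts only, 1 with the replicate block, and 1 to 10 without 1 library. The cause was not tested.

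The groups share replicate numbers, but no source says which rat a number stands for, and correlations of the deviations of same-numbered libraries ran from −0.0956 to 0.103. The numbers were therefore not taken as pairing, although the study derived its NPCs from MSCs of the same rats. The planned balance of proteinases and inhibitors was not run, for lack of names. Depth limits the MSC levels of Mmp10, Mmp9 and Timp4, which rest on 9.59 to 25.8 implied reads a library.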
